A study of Mus musculus with 64 samples.

Results

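Livers were compared between HuMgat2 and wild-type (WT) mice that had eaten a high-fat diet (HFD) for 16 weeks. The HuMgat2 animals are humanized mice that express human MOGAT2, and WT mice carry the mouse gene. The comparison took the 4 libraries of HuMgat2 on HFD (numbered 9 to 12) and the 4 libraries of WT on HFD (numbered 1 to 4), chosen by their labels, so 8 of the 16 libraries of the study. The other 8 were 4 WT (5 to 8) and 4 HuMgat2 libraries (13 to 16) from mice kept on chow for the same 16 weeks, and they served here for the genotype difference without the diet. The strain background, sex and age of the animals, the promoter and tissue in which the human gene is expressed, and whether each library came from its own animal are not stated in the labels. The p-values below therefore measure the spread between these libraries.

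MOGAT2 joins a fatty acid to monoacylglycerol to make diacylglycerol, the step before triglyceride. In mice the enzyme works mainly in the small intestine, where it rebuilds dietary fat for export in chylomicrons, and in humans it is also found in the liver. Fat and sterol that reach the hepatocyte are sensed there by transcription factors: SREBP2 raises cholesterol synthesis when sterol is scarce, LXR raises sterol export when it is plentiful, and PPAR alpha raises fatty acid oxidation when fatty acids arrive.

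The libraries held 12422647 to 25812129 counts, a range set by the WT libraries on HFD, and those of HuMgat2 on HFD held 19741137 to 22917476. Hepatocyte markers summed to 50370 to 76930 CPM (counts scaled to library size, with TMM factors) in the 8 HFD libraries and pancreatic acinar markers to 2.7 to 6.06 CPM, with Prss1, Cela3b, Cpb1 and Clps at 0 in every library. Counts of 4 Y-linked genes were 278 or more in all 16 libraries and Xist reached at most 34, so no library stood apart in sex. Library 4 of WT on HFD differed from the other 3. It was the smallest, albumin (Alb) took 0.85% of its counts against 3.259% to 6.018% in the others, and the median of its Spearman correlations with the same group was 0.9406, where the other libraries had 0.95 to 0.9594. Its level was the highest of the 4 WT HFD libraries for all 31 acute phase and inflammation genes and 15 of 16 antigen presentation genes, and the lowest for all 22 major urinary protein genes and 28 of 31 fatty acid oxidation genes, against 38.3% and 33.1% of all tested genes. The summed level of 13 Kupffer cell markers was 1064 CPM in it and 311.8 to 449.2 CPM in the other 3, and that of 11 monocyte and macrophage markers 908 CPM against 194.8 to 327 CPM. In bulk liver, more cells of a type and more RNA per cell cannot be told apart. A gene named as risen or fallen with no separate value was called in the same direction without it.

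With all libraries 2558 genes differed between the genotypes on HFD, 14.8% of the 17318 tested. Of these, 1249 were higher in HuMgat2 (7.21%) and 1309 were lower (7.56%), at an adjusted p below 0.05 in edgeR's quasi-likelihood test. Genes called higher or lower are said below to have risen or fallen in HuMgat2. The shares of 7.21% and 7.56% are those to set beside the members called in each gene list below. Without WT HFD library 4 the calls numbered 2501, 14.2% of 17642 tested, with 1303 higher (7.39%) and 1198 lower (6.79%). The calls made with and without it numbered 1034 higher and 967 lower, and 0 had changed direction. Leaving out HuMgat2 library 10 moved the number most, to 1585. The groups did not overlap for 2179 of the called genes, and of all tested genes 10.9% lay wholly higher and 10.3% wholly lower in HuMgat2, 21.2% in all. A change of 2-fold or more was found in 354 genes that rose and 556 that fell, and of 4-fold or more in 91 and 162. On chow, by contrast, 88 genes were called (0.508%), 46 higher (0.266%) and 42 lower (0.243%), and 1863 had an unadjusted p below 0.05. Leaving out WT chow library 5 gave 53 calls on chow, HuMgat2 chow library 13 gave 58 and WT HFD library 4 gave 204.

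**Figure D1:**
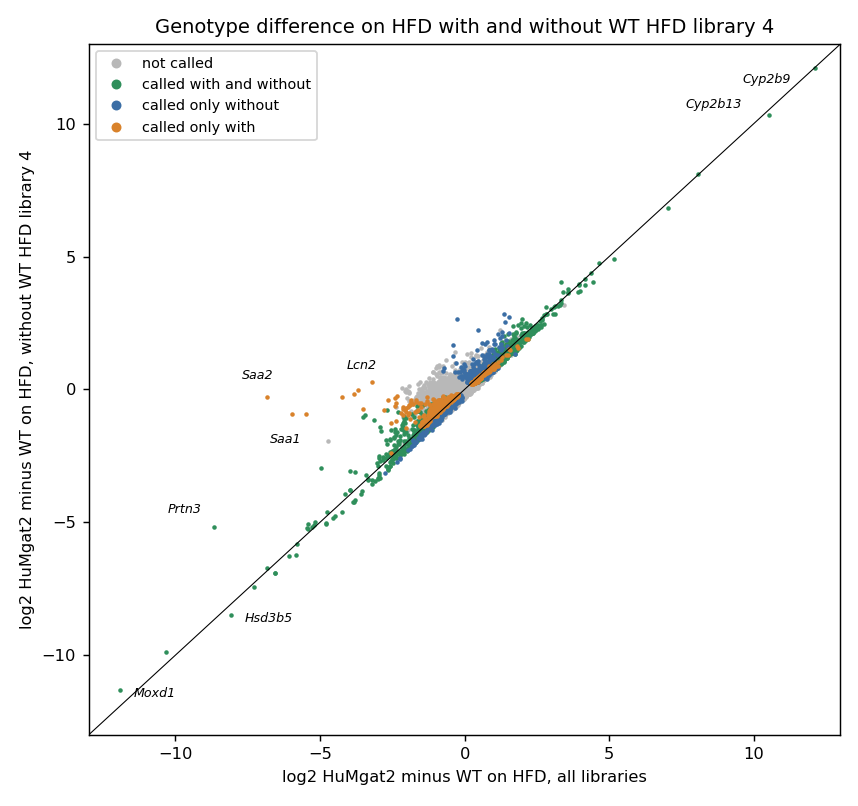
Each point is a tested gene, placed by its log2 change between HuMgat2 and WT on HFD with all libraries (x axis) and without WT HFD library 4 (y axis), and coloured by whether it was called at an adjusted p below 0.05. Most called genes lie near the diagonal line of equal values, while the acute phase genes Saa1, Saa2 and Lcn2 lie at -5.97, -6.84 and -3.70 on the x axis and at -0.94, -0.30 and -0.03 on the y axis.

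The locus itself was checked before the other genes. Mogat2 (chromosome 7, 98868291 to 98887826, GRCm39) had 2, 2, 12 and 5 counts in WT libraries 1 to 4 and 1, 2, 0 and 0 in HuMgat2 libraries 9 to 12, which is below the filter for testing. Reads of human MOGAT2 are not counted in a table of mouse genes, so its level was not measured. Mogat1, which carries out the same reaction, stood at 0.977, 0.417, 1.09 and 0 CPM in WT libraries 1 to 4 and at 3.01, 4.07, 5.23 and 4.62 CPM in HuMgat2 libraries 9 to 12, in the order used for every gene below. All 4 HuMgat2 values were above the WT values, and Mogat1 rose 6.3-fold (log2 2.65 ± 0.52 SE, adjusted p = 0.00288), or by a log2 of 2.35 (adjusted p = 0.00101) without WT library 4. Dgat2, which makes triglyceride from diacylglycerol, had 299, 261, 309.6 and 243 CPM in WT and 184, 160.4, 183 and 193 CPM in HuMgat2. The groups did not overlap, and Dgat2 fell (log2 -0.63 ± 0.13 SE, adjusted p = 0.00402; -0.69, adjusted p = 0.00154 without library 4). Dgat1, the other enzyme of that step, overlapped between the groups and was not called (log2 0.09, adjusted p = 0.747). Within 10 Mb of Mogat2, 10 of 183 tested genes were higher and 19 lower, 15.8%, against 13.6% on the rest of chromosome 7 and 14.8% on the other chromosomes. On the stretch of 10 Mb either way, 14 genes were higher and 16 lower without WT library 4 (16.4%). The largest changes in this window were those of the interferon-induced GTPase gene Gvin1, its relative Gvin2 (log2 -2.18) and the pseudogenes Gvin-ps2 (-2.43), Gvin-ps3 (-2.36), Gvin-ps4 (-2.43) and Gvin-ps5 (-2.34), all of which fell. Without library 4 these 5 changes were -1.48, -1.81, -1.71, -1.80 and -1.62. Gvin1 had 221, 132, 65.7 and 487 CPM in WT and 51.5, 47.7, 59.1 and 39.3 CPM in HuMgat2, so library 4 held the highest value, and the log2 change of -2.19 was -1.50 (adjusted p = 0.00233) without it. Gvin copies share sequence, so their counts are not independent.

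Cholesterol synthesis had the highest median change of the gene lists of at least 9 tested members, lists that were chosen with earlier results of these data known. The erythroid list, with 6 tested members, had a higher median log2 change, 1.51 (1.74 without WT library 4). Of 24 tested cholesterol genes 19 rose and 0 fell (20 and 0 without WT library 4), and the median log2 change was 1.35 (1.37 without it), against −0.038 over all tested genes. On chow their median was 0.05. The list summed to 1783 to 2169 CPM in WT and 3188 to 5502 CPM in HuMgat2 on HFD. On chow it summed to 2748 to 3430 CPM in WT and 3033 to 3671 CPM in HuMgat2. WT on HFD thus lay below every chow library, and a rise here is a level above WT on HFD. For 13 of the 24 the genotype difference on HFD was above that on chow by the interaction test, in which 2.61% of all tested genes were called in that direction and 4.87% in either. The largest changes were those of Sqle, Idi1, Hmgcs1 and Mvd. Part of the control of such genes lies just before the gene. The 250 bases before the start of Idi1, Hmgcs1, Mvd and Cyp51 are printed to show the letters shared between genes that moved together. All of them rose with and without WT library 4. They were picked by size of change from only part of the matched members, so a matched member left out may have changed more. Capitals mark CCAAT, the binding motif of NF-Y, and TCACNCCAC, a form of the sterol regulatory element bound by SREBP, each on either strand (ATTGG is CCAAT on the other), and no marked stretch overlaps another.
Idi1, chr13:8885356-8885605, plus strand: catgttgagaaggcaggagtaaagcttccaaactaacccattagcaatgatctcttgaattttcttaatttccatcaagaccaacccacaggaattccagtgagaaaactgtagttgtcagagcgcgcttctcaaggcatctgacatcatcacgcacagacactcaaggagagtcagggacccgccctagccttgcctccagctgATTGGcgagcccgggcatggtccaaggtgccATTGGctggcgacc
Hmgcs1, chr13:119690101-119690350, plus strand: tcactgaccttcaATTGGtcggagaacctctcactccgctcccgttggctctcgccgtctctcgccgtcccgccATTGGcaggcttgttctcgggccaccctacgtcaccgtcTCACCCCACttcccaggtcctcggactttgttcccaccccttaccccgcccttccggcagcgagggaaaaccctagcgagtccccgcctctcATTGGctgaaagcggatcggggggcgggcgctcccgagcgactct
Mvd, chr8:122443423-122443672, minus strand: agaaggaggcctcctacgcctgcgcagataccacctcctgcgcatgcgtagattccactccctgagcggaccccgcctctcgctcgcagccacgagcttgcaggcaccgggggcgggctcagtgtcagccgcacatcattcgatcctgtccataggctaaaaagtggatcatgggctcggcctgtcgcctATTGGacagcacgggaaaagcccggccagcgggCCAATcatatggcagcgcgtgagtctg
Cyp51, chr5:4104698-4104947, minus strand: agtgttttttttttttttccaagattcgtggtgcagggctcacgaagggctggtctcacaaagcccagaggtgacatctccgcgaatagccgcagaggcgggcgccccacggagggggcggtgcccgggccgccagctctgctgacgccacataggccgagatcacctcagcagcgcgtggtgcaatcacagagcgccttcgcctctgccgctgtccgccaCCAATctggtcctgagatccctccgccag

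These sequences are RefSeq's for GRCm38.p6 and read 5′ to 3′ along the gene. Of the 24 listed genes 16 were matched by symbol to this promoter table, and all 16 held CCAAT or its complement within 250 bases, against 37.5% of 27025 genes in the table and 40.8% of the 11153 that were tested here. A gene with several promoter entries was counted if any of them held the motif. TCACNCCAC was found before Hmgcs1 alone of the 16, against 1.22% of all genes. A match describes letters and shows no binding, and no match says nothing of other forms of the element.

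Sqle, squalene epoxidase (ENSMUSG00000022351, chromosome 15, 59186926 to 59203041, GRCm39), stood at 4.25, 3.88, 6.6 and 6.67 CPM in WT and 103, 102, 27 and 19.4 CPM in HuMgat2. The lowest HuMgat2 library was above the highest WT library, and Sqle rose 11.9-fold (log2 3.57 ± 0.50 SE, adjusted p = 0.00023). Idi1, which isomerizes isopentenyl diphosphate, had 23.4, 18.8, 28.5 and 24.2 CPM in WT and 327, 303, 105 and 88.6 CPM in HuMgat2. It rose 8.67-fold (log2 3.12 ± 0.37 SE, adjusted p = 4.65e-05), although its pseudogene Idi1-ps1 may share its reads. Hmgcs1, the synthase that makes HMG-CoA, had 90.7, 86, 87.4 and 41.4 CPM in WT and 839, 893, 404 and 381 CPM in HuMgat2, with library 4 the lowest of WT (log2 3.04 ± 0.32 SE, adjusted p = 1.34e-05). Mvd, mevalonate decarboxylase, rose from 3 ± 0.73 to 19.9 ± 8.57 CPM (mean ± SD, n = 4 libraries; log2 2.73, adjusted p = 0.000345). Without library 4 the log2 changes of the 4 genes were 3.68, 3.13, 2.84 and 2.79. HuMgat2 libraries 9 and 10 were above libraries 11 and 12 for 18 of the 19 members that rose, against 18.9% of all tested genes. The plot of lipid and sterol genes shows this division, for which the labels give no name.

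**Figure D2:**
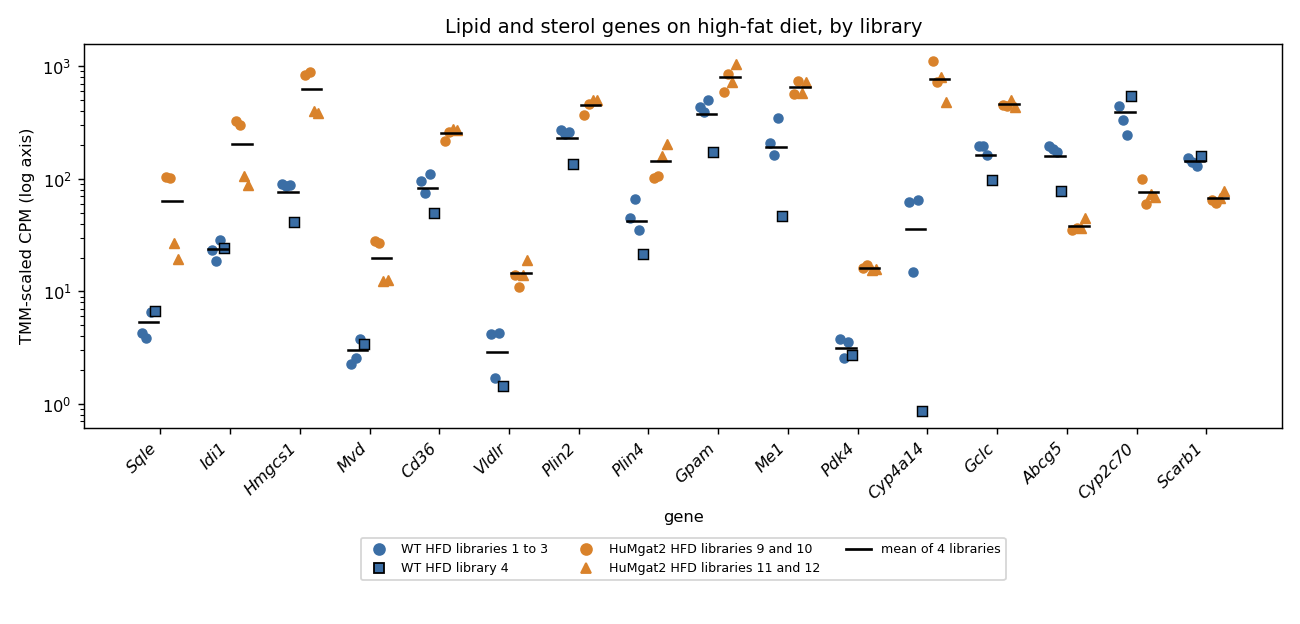
TMM-scaled CPM on a log axis for 16 lipid and sterol genes in each HFD library, with WT in blue (library 4 as a black-edged square) and HuMgat2 in orange (libraries 11 and 12 as triangles), and bars at the mean of 4 libraries. For Sqle, Idi1, Hmgcs1 and Mvd the HuMgat2 libraries 9 and 10 sit above 11 and 12, and all 4 sit above WT.

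Transporters that carry sterol out of the cell fell. Of 9 sterol efflux and LXR target genes 4 fell and 0 rose, with and without WT library 4, although the median log2 change was −0.15 (−0.05 without it). Abcg5 and Abcg8 encode the paired transporter that secretes cholesterol into bile. Abcg5 had 198, 185, 174 and 77.5 CPM in WT and 34.8, 36.4, 36.6 and 45.2 CPM in HuMgat2 (log2 -2.05 ± 0.28 SE, adjusted p = 0.000142). The groups did not overlap, and the change was -2.28 (adjusted p = 3.82e-06) without library 4. For Abcg8, at 348, 316, 236 and 82.6 CPM in WT and 75.8, 80.2, 72.6 and 91.8 CPM in HuMgat2, WT library 4 alone fell within the HuMgat2 range (log2 -1.62, and -1.90 without it). Abca1, which loads cholesterol onto apolipoprotein A-I, fell from 554 ± 15.9 to 316 ± 42.5 CPM (log2 -0.81, adjusted p = 0.000158). Abcg1 fell too (log2 -0.90; -0.58 without library 4), its WT value in library 4 being 37.7 CPM against a WT mean of 18.5 ± 3.26 CPM in the other 3.

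Among 20 lipoprotein genes 4 fell and 1 rose, against 7.56% and 7.21% of all tested genes. Without WT library 4 there were 4 and 3. Scarb1, the receptor for high-density lipoprotein, had 152, 141, 129 and 160.2 CPM in WT and 65.3, 61.2, 67.6 and 78.5 CPM in HuMgat2. It fell 2.13-fold without overlap (log2 -1.09 ± 0.13 SE, adjusted p = 4.63e-05; -1.04, adjusted p = 6.35e-05 without library 4). Apoa1, the main protein of that lipoprotein, fell by log2 1.01 (adjusted p = 0.00665), Apom by log2 0.72 (adjusted p = 0.0041) and Lrp1, an endocytic receptor for remnants, by log2 0.91 (adjusted p = 0.0101). Lrp1 stood at 3169 CPM in WT library 4 against a WT mean of 1559 ± 184 CPM in the other 3, and its log2 change was -0.57 (adjusted p = 0.0101) without library 4. In 23 bile acid genes 4 fell and 2 rose (5 and 3 without library 4). Cyp2c70, which makes muricholic acids in mice, had 443, 334, 247 and 539.6 CPM in WT and 100.1, 60.4, 73.6 and 68.8 CPM in HuMgat2, and it fell 5.16-fold (log2 -2.37 ± 0.23 SE, adjusted p = 5.78e-06). Cyp27a1, which opens the alternative pathway, fell (log2 -0.84 ± 0.14 SE, adjusted p = 0.000684), and Cyp8b1, which sets the share of cholic acid, rose. The Cyp8b1 values were 166, 167, 302 and 11.4 CPM in WT and 504, 573, 636 and 436 CPM in HuMgat2, so WT library 4 widened the spread (log2 1.73 ± 0.53 SE, adjusted p = 0.0368; 1.34, adjusted p = 0.000723 without it). Leaving out WT library 1 or 2 or any HuMgat2 library also ended its call, with an adjusted p of 0.0521 to 0.0771. Slco1a1, an organic anion uptake carrier that is higher in males, had 572, 473, 507 and 43.9 CPM in WT and 46.7, 24.9, 6.08 and 6.18 CPM in HuMgat2 (log2 -4.25; -4.62, adjusted p = 2.12e-05 without WT library 4, and −5.01 without HuMgat2 library 9).

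Part of the fat storage genes rose in HuMgat2. Of 12 lipid droplet genes 6 rose and 0 fell (5 and 0 without WT library 4), with a median log2 change of 0.61 (0.44 without it). Cidea, which promotes the growth of lipid droplets, had 0.342, 2.54, 0.932 and 0 CPM in WT and 4.48, 22.8, 15.2 and 25 CPM in HuMgat2. It rose 16.1-fold without overlap (log2 4.01 ± 0.63 SE, adjusted p = 0.00059; 3.69, adjusted p = 0.000353 without WT library 4, and 5.08 without WT library 2). Plin2, the main droplet coat protein of the hepatocyte, had 273, 251, 261 and 136 CPM in WT and 369.9, 463, 501 and 497 CPM in HuMgat2 (log2 0.99 ± 0.20 SE, adjusted p = 0.00386; 0.81, adjusted p = 0.0026 without library 4). Plin4 and Plin3, of the same family, rose by log2 1.76 and 0.49. Of 15 fatty acid uptake and binding genes 5 rose and 2 fell (4 and 3 without WT library 4, and 3 and 2 without HuMgat2 library 10). The fatty acid transporter Cd36 had 95.6, 74.9, 111 and 50 CPM in WT and 218, 261, 277 and 273 CPM in HuMgat2. The groups did not overlap, and Cd36 rose 3.1-fold (log2 1.63 ± 0.21 SE, adjusted p = 9.32e-05; 1.46, adjusted p = 3.92e-05 without library 4). Vldlr, the receptor for very-low-density lipoprotein, rose by log2 2.29 from 2.9 ± 1.54 to 14.5 ± 3.26 CPM. Fabp5 and Lpl fell (log2 -2.73 and -1.02), and Fabp5 stood at 43.9 CPM in WT library 4 against a WT mean of 10.5 ± 1.43 CPM in the other 3 (log2 -1.91 without it). The adipocyte protease Cfd, at 83.2, 129.9, 78.9 and 0.159 CPM in WT and 3.01, 6.82, 6.97 and 4.08 CPM in HuMgat2, was also lower (log2 -3.81 ± 0.78 SE, adjusted p = 0.00396; -4.22, adjusted p = 1.26e-08 without library 4), while the adipocyte markers Adipoq, Lep, Retn and Plin1 were too low to be tested. Of the 4 adipocyte markers tested 2 fell, Cfd and Lipe. Their list summed to 117.2 to 185.6 CPM in WT libraries 1 to 3, 13.66 CPM in library 4 and 39.31 to 73.94 CPM in HuMgat2, and its part in the lipid results was not tested.

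Triglyceride synthesis changed in part, where 7.21% of all tested genes rose and 7.56% fell. Of 16 tested genes 4 rose and 1 fell (4 and 2 without WT library 4), with a median log2 change of 0.26. Gpam and Gpat3 encode the acyltransferases of the entry step from glycerol phosphate. Gpam had 432, 389.7, 499 and 173 CPM in WT and 588, 853, 725 and 1051 CPM in HuMgat2 (log2 1.11 ± 0.24 SE, adjusted p = 0.00536; 0.87, adjusted p = 0.00107 without library 4). Gpat3 rose by log2 1.15 (adjusted p = 0.0229; 0.0619, 0.0607 and 0.0545 without WT library 2, WT library 3 or HuMgat2 library 12) and Gpd1, which makes glycerol phosphate, by log2 0.94 (adjusted p = 0.0181). Of 12 triglyceride hydrolysis genes 1 rose, the lysosomal lipase Lipa (log2 0.57, adjusted p = 0.00634), and 1 fell, the hormone-sensitive lipase Lipe (log2 -0.78, adjusted p = 0.00516), and without WT library 4 there were 2 and 1. Lipe also stands on the adipocyte list.

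The number of lipogenic genes called changed with the libraries used. Of 19 tested, 7 rose and 1 fell with all libraries, and 3 rose and 2 fell without WT library 4, and the medians were 0.49 and 0.44. The summed level of the list did not rise. It was 37570 to 49570 CPM in WT libraries 1 to 3, 25180 CPM in library 4 and 21950 to 36640 CPM in HuMgat2. Without library 4 the sum, in which the most abundant members weigh most, was thus lower in HuMgat2 although the median change was above 0. Leaving out WT library 1 or 2 or HuMgat2 library 10 gave 3 that rose, HuMgat2 library 12 gave 4, and WT library 3 gave 10. Me1, malic enzyme, which supplies NADPH, had 209, 162, 349 and 47.2 CPM in WT and 562, 734, 584 and 730.2 CPM in HuMgat2, with library 4 the lowest (log2 1.76 ± 0.37 SE, adjusted p = 0.0051; 1.44, adjusted p = 0.000449 without it). Acly, which makes cytosolic acetyl-CoA from citrate, rose by log2 1.53 (1.29 without library 4) and Pklr, pyruvate kinase, by log2 1.16 (0.91). Srebf1, the regulator of these enzymes, fell instead. It had 480.3, 641, 600.5 and 295 CPM in WT and 208, 248, 308 and 332 CPM in HuMgat2 (log2 -0.88 ± 0.22 SE, adjusted p = 0.0145), and WT library 4 alone overlapped with HuMgat2 (-1.07, adjusted p = 0.000831 without it).

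Of 31 fatty acid oxidation and PPAR alpha target genes 15 rose and 0 fell, and 17 and 0 without WT library 4. Their median log2 change was 0.54 (0.41 without it) and −0.04 on chow. Cyp4a14, a fatty acid omega-hydroxylase, had 62.8, 14.8, 65.1 and 0.874 CPM in WT and 1105, 726, 801 and 482 CPM in HuMgat2. It rose 21.6-fold (log2 4.43 ± 0.95 SE, adjusted p = 0.00524; 4.03, adjusted p = 0.00274 without library 4). Pdk4, which restrains pyruvate oxidation, had 3.76, 2.54, 3.56 and 2.7 CPM in WT and 16.1, 17.1, 15.6 and 15.9 CPM in HuMgat2 and rose 5.11-fold (log2 2.35 ± 0.26 SE, adjusted p = 2.04e-05). On HFD all HuMgat2 libraries were above all WT libraries for both genes. The thioesterase Acot3 (log2 2.38, adjusted p = 0.00162) and the fasting hormone Fgf21 (log2 2.20, adjusted p = 0.00261) rose as well. Among genes of the respiratory chain, edgeR called 0 of 28 nuclear ones (4 at an unadjusted p below 0.05, 1 called by DESeq2 and 1 by voom) and 0 of 13 mitochondrial ones (0 at an unadjusted p below 0.05, 0 called by DESeq2 and 1 by voom), with median log2 changes of 0.1 and −0.1. Without WT library 4 it called 1 of the nuclear genes lower and 0 of the mitochondrial ones.

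**Figure D3:**
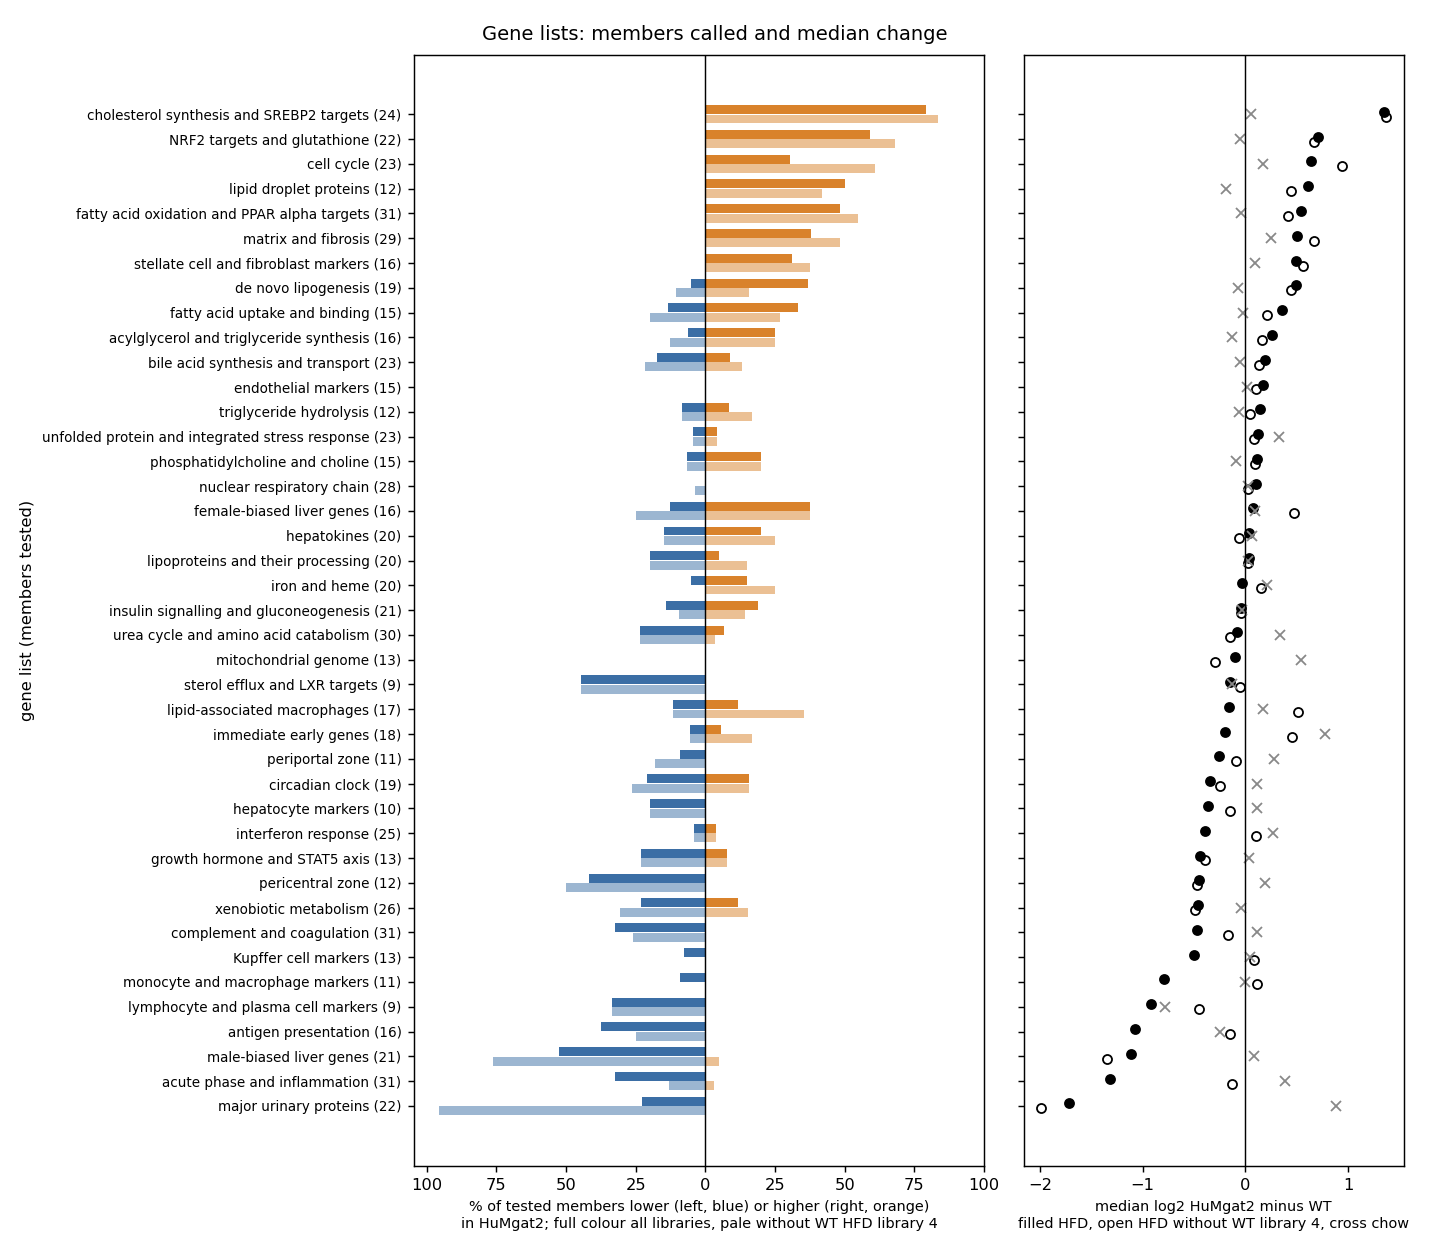
Left, the percentage of tested members of each gene list that were called lower (blue) or higher (orange) in HuMgat2 on HFD, in full colour with all libraries and pale without WT HFD library 4, for lists with at least 9 tested members. Right, the median log2 change of each list on HFD (filled), on HFD without that library (open) and on chow (cross), with cholesterol synthesis at the top at 1.35 and major urinary proteins at the bottom at −1.72.

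Liver genes that differ between the sexes changed. Growth hormone is released in pulses in males and more evenly in females, and through STAT5 and BCL6 this pattern holds male-biased genes up and female-biased genes down in the male liver. Of 21 male-biased genes tested 11 fell and 0 rose (16 and 1 without WT library 4), with a median log2 change of −1.11 (−1.35). Hsd3b5, a male-biased steroid dehydrogenase (ENSMUSG00000038092, chromosome 3, 98525950 to 98537568), had 138, 135, 101 and 6.59 CPM in WT and 0.407, 0.531, 0.213 and 0.224 CPM in HuMgat2. It fell 274-fold (log2 -8.10 ± 0.85 SE, adjusted p = 1.38e-05), and WT library 4 was far below the other WT libraries (-8.48, adjusted p = 3.93e-09 without it). Moxd1 had 73.1, 42.5, 9.64 and 136 CPM in WT and 0.0407, 0, 0 and 0 CPM in HuMgat2, with 4469 counts summed in WT and 1 in HuMgat2. The ratio of summed counts was 5087 (95% counting interval 912.5 to 201000), which covers counting error only, and the adjusted p was 0.00244. On chow Moxd1 had 0, 4.72, 0.0453 and 0.0494 CPM in WT and 0.646, 0, 2.31 and 29.2 CPM in HuMgat2. Its WT level on HFD was thus above that of WT on chow, and the fall is a level below WT on HFD. Of 22 major urinary protein genes, which encode male pheromone carriers, 5 fell with all libraries and 21 without WT library 4, and the medians were −1.72 and −1.99. Mup7, at 7378, 8079, 6065 and 871 CPM in WT and 654, 743, 308 and 168 CPM in HuMgat2, fell 11.9-fold (log2 -3.58 ± 0.97 SE, adjusted p = 0.0209). Mup genes are near-identical copies whose reads may be divided between them, so single Mup values are uncertain. Leaving out HuMgat2 library 11 or 12 left 0 of the 22 called, with an adjusted p for Mup7 of 0.062 and 0.0604, and leaving out WT library 1 or 2 left 2 and 1, and HuMgat2 library 9 or 10 or WT library 3 left 3. Leaving out HuMgat2 chow library 14 gave 19.

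Of 16 female-biased genes tested 6 rose and 2 fell (6 and 4 without WT library 4), with a median log2 change of 0.07 (0.47). This list thus did not move as a whole, and the members named next, picked by size of change, are among those that rose. Cyp2b9 (ENSMUSG00000040660, chromosome 7, 25872836 to 25910086), a cytochrome P450 of the female liver, had 0.0488, 0, 0.243 and 0.0794 CPM in WT and 375, 419, 567 and 484 CPM in HuMgat2. The groups lay far apart (log2 12.12 ± 1.43 SE, adjusted p = 4.32e-05; 12.08, adjusted p = 7.26e-05 without WT library 4, and 13.45 without WT library 3), and on chow it was not called (log2 1.96, adjusted p = 0.388). On chow Cyp2b9 had 3.31, 0.0463, 22.4 and 12.8 CPM in WT and 74.6, 6.19, 59.8 and 10.8 CPM in HuMgat2. Its WT mean was 0.0929 CPM on HFD and 9.64 CPM on chow, so part of the gap is a low level in WT on HFD. Cyp2b13, its neighbour on chromosome 7, had 2 counts summed in WT and 4129 in HuMgat2, a ratio of 1814 (95% counting interval 501.8 to 14980; adjusted p = 4.68e-05). Hao2, a peroxisomal hydroxyacid oxidase, had 0.0977, 0, 0.081 and 0 CPM in WT and 9.64, 3.36, 8.67 and 6.9 CPM in HuMgat2 (log2 7.03 ± 0.68 SE, adjusted p = 6.35e-06). Abcd2, a peroxisomal transporter of long fatty acids, went from 8.55 ± 5.38 CPM in WT to 51.3 ± 7.68 CPM in HuMgat2 (log2 2.55, adjusted p = 0.0163). Of the 13 genes of the growth hormone and STAT5 axis itself 1 rose and 3 fell, with and without WT library 4, but only 2 fell in both fits. Stat5a rose (log2 0.58, adjusted p = 0.00313). Socs2, a target and inhibitor of the receptor, had 17, 29.8, 17.4 and 19.2 CPM in WT and 11.3, 10.8, 6.63 and 4.71 CPM in HuMgat2 and fell (log2 -1.32 ± 0.31 SE, adjusted p = 0.01; -1.35, adjusted p = 0.00945 without library 4). Bcl6, the repressor that helps to set the male pattern, fell with all libraries (log2 -1.53, adjusted p = 0.0398) and was not called without library 4 (-1.36, adjusted p = 0.0745), nor without WT library 1 or any 1 HuMgat2 library (adjusted p = 0.0676 to 0.104). Socs3 fell by log2 3.13 with library 4, where it stood at 116 CPM, and by log2 1.16 without it.

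**Figure D4:**
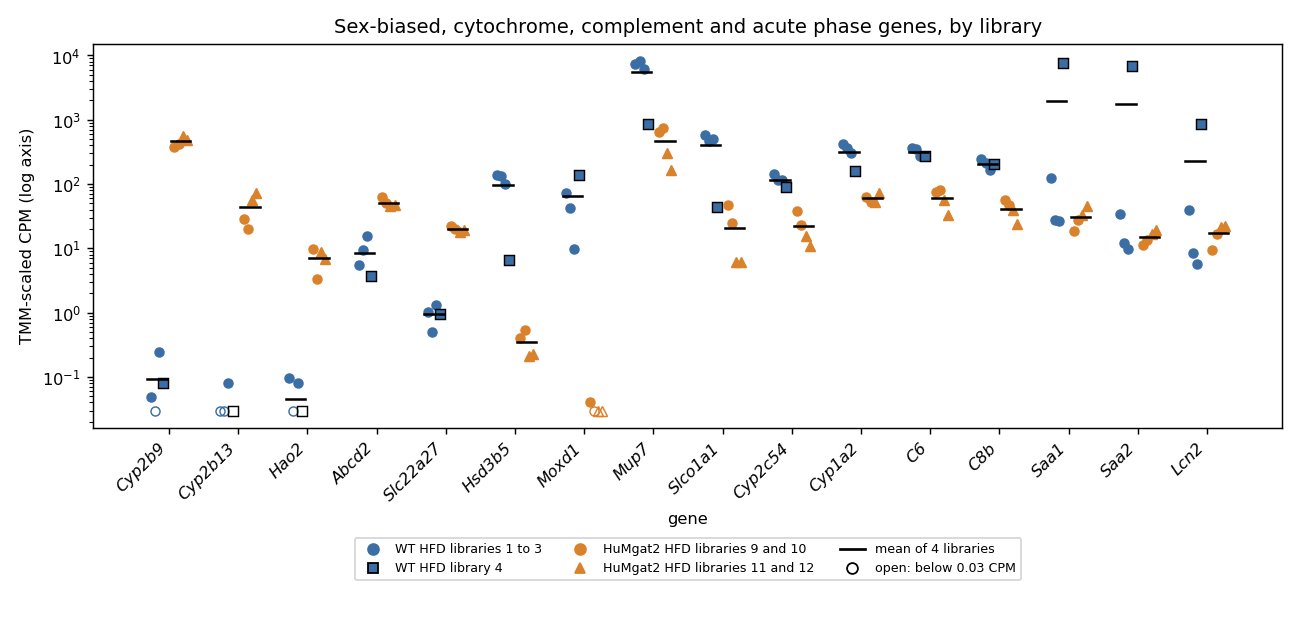
TMM-scaled CPM on a log axis for 16 genes in each HFD library, marked as in the plot of lipid genes, with open symbols for values below 0.03 CPM and no bar where the mean is below it. The female-biased Cyp2b9 and Cyp2b13 are high in HuMgat2 alone, Hsd3b5 and Moxd1 in WT alone, and Saa1, Saa2 and Lcn2 are high in WT library 4 alone.

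The glutathione and NRF2 list, whose genes detoxify reactive compounds, had 13 of 22 members higher and 0 lower (15 and 0 without WT library 4), with a median log2 change of 0.71 (0.67) and −0.05 on chow. It summed to 1722 to 2382 CPM in WT and 3275 to 4147 CPM in HuMgat2 on HFD. On chow the sums were 4049 to 4788 CPM in WT and 3417 to 5242 CPM in HuMgat2, so WT on HFD was the lowest group. Gclc, the catalytic subunit of the enzyme that starts glutathione synthesis, had 197, 196, 164 and 98.4 CPM in WT and 454, 448, 501 and 439 CPM in HuMgat2. It rose 2.81-fold (log2 1.49 ± 0.18 SE, adjusted p = 4.58e-05; 1.31, adjusted p = 3.99e-06 without library 4). The glutathione transferases Mgst3 (log2 1.99), Gsta1 (2.43) and Gstm3 (1.51) rose, with adjusted p = 3.82e-05, 0.0102 and 0.0096. Gstm3 was at 35, 64.2, 69.9 and 173 CPM in HuMgat2, so library 12 was far above the others, and the log2 change was 0.92 without it. The xenobiotic metabolism list had 26 tested genes, of which 6 fell and 3 rose (8 and 4 without library 4). Cyp1a2, which oxidizes caffeine and aromatic amines, had 416, 368, 300.1 and 161 CPM in WT and 63.4, 51.7, 52.9 and 72.5 CPM in HuMgat2 and fell 5.18-fold (log2 -2.37 ± 0.28 SE, adjusted p = 4.06e-05). Within the Cyp2c cluster of chromosome 19, Cyp2c54 fell (log2 -2.41, adjusted p = 0.00042) and Cyp2c38 and Cyp2c39 rose (log2 2.15 and 1.95, adjusted p = 2.7e-06 and 0.000277).

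Part of the complement list fell. Of 31 complement and coagulation genes tested 10 fell and 0 rose (8 and 0 without WT library 4), with a median log2 change of −0.47 (−0.17 without it). The members with the largest changes encode parts of the membrane attack complex: C6, C8b, C8a and C9. C6 had 364, 346, 275 and 276 CPM in WT and 74.5, 81.8, 55.5 and 33.5 CPM in HuMgat2 and fell 5.14-fold (log2 -2.36 ± 0.23 SE, adjusted p = 6.35e-06; -2.42, adjusted p = 4.01e-06 without library 4). C8b had 247, 215, 165 and 204 CPM in WT and 55.5, 46.5, 40.1 and 23.9 CPM in HuMgat2 (log2 -2.32, adjusted p = 5.31e-06), and C8a and C9 fell by log2 1.70 and 1.22. No HuMgat2 value of these 4 genes reached the WT values. Library 4 was the highest WT library for 22 of the 31 members. On chow the median was 0.11, and for C6 and C8b the genotype difference on HFD was below that on chow (log2 -2.42 ± 0.31 SE, adjusted p = 0.000334 for C6, log2 -2.46 ± 0.30 SE, adjusted p = 0.000195 for C8b).

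Acute phase and immune genes rested largely on WT library 4. Of 31 acute phase and inflammation genes 10 fell with all libraries, against 4 that fell and 1 that rose without it, and the median log2 change went from −1.32 to −0.13. Leaving out WT library 2 or 3 gave 17 and 20 that fell, and HuMgat2 library 10 gave 6. Saa2, an acute phase apolipoprotein, had 34.6, 12.2, 9.68 and 6934 CPM in WT and 11.2, 13.5, 17 and 19.3 CPM in HuMgat2. Library 4 was far above every other library, and the log2 change of -6.84 (adjusted p = 0.0115) was -0.30 (adjusted p = 0.636) without it. Saa1 (log2 -5.97; -0.94, adjusted p = 0.152 without it) and Lcn2 (-3.70; -0.03, adjusted p = 0.977) did the same, as did the metal-binding Mt2 (-5.49; -0.93, adjusted p = 0.483). The interleukin 1 receptor Il1r1 fell in both fits: it had 95.3, 69.8, 49.4 and 328 CPM in WT and 21.7, 18.5, 23.7 and 36.9 CPM in HuMgat2 (log2 -2.42 ± 0.45 SE, adjusted p = 0.00217; -1.50, adjusted p = 0.000611 without library 4). Of 16 antigen presentation genes 6 fell with all libraries and 4 without library 4. The count was 3 without HuMgat2 library 9 or 12, 4 without HuMgat2 library 10 and 11 without WT library 3. H2-Q7 had 79.8, 75.3, 68.9 and 149.5 CPM in WT and 45.2, 37.3, 43.5 and 38.7 CPM in HuMgat2 and fell in both (log2 -1.18; -0.86, adjusted p = 0.000203). Interferon response genes had 1 of 25 higher and 1 lower with and without WT library 4 (3 lower without WT library 3), Bst2 (log2 -0.82, adjusted p = 0.000248) being the lower and Rsad2 (log2 0.93, adjusted p = 0.0144) the higher.

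Among the immune cell lists, those of Kupffer cells and of monocytes and macrophages had few members called. Of all tested genes 7.21% rose and 7.56% fell. Of 13 Kupffer cell markers 1 fell, the scavenger receptor Marco (3.37, 3.92, 1.74 and 76.2 CPM in WT, 2.28, 2.74, 1.11 and 1.12 CPM in HuMgat2; log2 -3.51), and without library 4 its log2 change was -0.72 (adjusted p = 0.42). Of 11 monocyte and macrophage markers 1 fell with all libraries, Mpeg1, and it was not called without library 4 (log2 -1.20; -0.59, adjusted p = 0.0739). Without library 4 the median changes of these lists were 0.08 and 0.11. Of 9 lymphocyte and plasma cell markers tested 3 were called lower with all libraries and without WT library 4, Cd4, Nkg7 and Cd3e. For Cd3e and Nkg7 these calls lay close to the threshold. The log2 change of Cd3e went from -2.08 to -1.09 without WT library 4 (adjusted p = 0.0485), and 17 of the 21 alternatives without that library did not call it. That of Nkg7 went from -2.18 to -1.34 (adjusted p = 0.0372), and 9 of 21 did not call it. With library 4 kept, Cd3e was not called without HuMgat2 library 11 (adjusted p = 0.0588), in the HFD groups alone (0.0777) or with limma voom (0.0599), nor Nkg7 without HuMgat2 library 10 (0.0512) or in the HFD groups alone (0.053). Cd4 had 2.88, 3.8, 1.78 and 6.12 CPM in WT and 0.488, 0.841, 0.595 and 0.717 CPM in HuMgat2 (log2 -2.43; -2.09, adjusted p = 0.00153 without library 4). The summed level of the lymphocyte list was 6.69 to 13.5 CPM in WT libraries 1 to 3, 24.8 CPM in library 4 and 4.59 to 8.15 CPM in HuMgat2. Of 2 neutrophil markers tested 1 was called lower with all libraries and without WT library 4, the protease Prtn3. It had 604 counts summed in WT and 2 in HuMgat2, a ratio of 343.7 (95% counting interval 94.75 to 2845). WT library 4 held 42.7 CPM against 0.486 to 1.37 CPM in the other 3, and the log2 change of -8.66 was -5.18 without it. The neutrophil list summed to 1.985 to 3.881 CPM in WT libraries 1 to 3, 60.06 CPM in library 4 and 1.829 to 2.116 CPM in HuMgat2. Of 6 erythroid markers tested 3 rose, the hemoglobin genes Hba-a1, Hba-a2 and Hbb-bt, and 4 rose without WT library 4. Leaving out WT library 3 or HuMgat2 library 10 left 0, and WT library 1 or HuMgat2 library 9 left 2. Hba-a1 and Hba-a2 are near-identical copies. Of 17 genes of lipid-associated macrophages 2 rose and 2 fell, and 6 and 2 without library 4. Mmp12, the macrophage elastase, had 0.684, 1.42, 0.81 and 3.26 CPM in WT and 4.48, 3.76, 3.32 and 4.88 CPM in HuMgat2, and its rise was larger without library 4 (log2 1.49; 2.07, adjusted p = 0.000184).

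Part of the matrix and stellate cell genes rose in HuMgat2. Of 29 matrix and fibrosis genes 11 rose and 0 fell (14 and 0 without WT library 4), with medians of 0.5 and 0.67. Leaving out HuMgat2 library 10 left 6. Postn, periostin, had 5.67, 7.43, 9.28 and 3.58 CPM in WT and 15, 15.2, 18.8 and 21.4 CPM in HuMgat2 and rose 2.67-fold (log2 1.42 ± 0.25 SE, adjusted p = 0.00128; 1.23, adjusted p = 0.00128 without library 4). Col6a2 and Col12a1, collagen chains, rose by log2 0.89 and 0.88 (adjusted p = 0.0032 and 0.00799). Of 16 stellate cell and fibroblast markers 5 rose and 0 fell (6 and 0 without library 4, and 3 without WT library 3 or HuMgat2 library 9, 10 or 11). Decorin (Dcn) had 101, 109, 102 and 100.3 CPM in WT and 162, 169, 132 and 144 CPM in HuMgat2, without overlap (log2 0.56 ± 0.14 SE, adjusted p = 0.0136). Lrat, which stores vitamin A in stellate cells, rose from 22.9 ± 6 to 39.2 ± 4.24 CPM (log2 0.77, adjusted p = 0.0168). The summed level of the 16 markers was 395.9 to 540.4 CPM in WT and 567.1 to 632.1 CPM in HuMgat2. Of 15 endothelial markers edgeR called 0 (4 at an unadjusted p below 0.05, 0 called by DESeq2 and 3 by voom), and of 7 cholangiocyte markers 0 (1 at an unadjusted p below 0.05, 0 called by DESeq2 and 0 by voom). Library 4 was the highest WT library for 19 of the 29 matrix genes.

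Of 23 cell cycle genes 7 rose and 0 fell, and 14 and 0 without WT library 4, which was the highest of the WT HFD libraries for 18 of the 23. Their median log2 change was 0.64 (0.94 without it). Leaving out WT library 1 or HuMgat2 library 12 left 4 that rose. Cdkn1a, the inhibitor p21, had 0.44, 1.17, 0.972 and 3.65 CPM in WT and 12.9, 13.2, 15.4 and 15.9 CPM in HuMgat2, and it rose 10-fold (log2 3.32 ± 0.38 SE, adjusted p = 3.37e-05; 4.03, adjusted p = 1.55e-08 without library 4). Cdc20, which drives exit from mitosis, and Mcm2, part of the replication helicase, rose by log2 1.75 and 1.05 (adjusted p = 0.00357 and 0.00924), the former from 0.382 ± 0.186 to 1.26 ± 0.17 CPM.

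Amino acid and glucose genes changed in a few members, where 7.21% of all tested genes rose and 7.56% fell. Of 30 urea cycle and amino acid genes 7 fell and 2 rose (7 and 1 without library 4, and 4 and 1 without HuMgat2 library 10). Cps1, the entry enzyme of the urea cycle, had 4596, 3023, 3434 and 3108 CPM in WT and 1681, 1536, 1956 and 2070 CPM in HuMgat2 and fell 1.96-fold (log2 -0.97 ± 0.17 SE, adjusted p = 0.00141). Prodh, proline dehydrogenase, fell by log2 0.77, and the genotype difference of Prodh differed between diets (log2 -1.43 ± 0.21 SE, adjusted p = 0.000925). Of 12 pericentral genes 5 fell and 0 rose (6 and 0 without library 4), among them Cyp1a2, the glutamate transporter Slc1a2 (log2 -0.82, adjusted p = 0.000836) and Rgn (log2 -0.69, adjusted p = 0.00504). Of 11 periportal genes 1 fell (2 without library 4). Irs2, an insulin receptor substrate, had 42.3, 39.6, 33.2 and 45.2 CPM in WT and 21.8, 15.3, 14.2 and 19.6 CPM in HuMgat2 and fell 2.26-fold (log2 -1.18 ± 0.16 SE, adjusted p = 0.000156). The gluconeogenic genes Pck1 and Fbp1 moved apart, by log2 -1.01 and 0.97 (adjusted p = 0.00818 and 0.000439).

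Secreted and clock genes completed the lists. Over all tested genes 7.21% rose and 7.56% fell, and with all libraries the stress response and immediate early lists lay below both shares. Of 20 hepatokines 4 rose and 3 fell (5 and 3 without WT library 4). Igfbp2, a binding protein of insulin-like growth factor, had 148, 168, 178 and 59 CPM in WT and 39.3, 26.2, 25 and 27.9 CPM in HuMgat2 and fell 4.68-fold (log2 -2.23 ± 0.26 SE, adjusted p = 4.06e-05; -2.47, adjusted p = 2.44e-08 without library 4). Gdf15, a stress hormone, rose by log2 1.69 (adjusted p = 0.011). Of 19 clock genes 3 rose and 4 fell (3 and 5 without WT library 4), and the number that fell was 2 without HuMgat2 library 9, 10 or 11 and 7 without HuMgat2 library 12. Npas2, a partner of BMAL1, rose by log2 3.56 and Bhlhe41, a repressor, fell by log2 2.13 (adjusted p = 0.0011 and 0.00302), and the hour of collection is not stated in the labels. Of 20 iron and heme genes 3 rose and 1 fell (5 and 0 without WT library 4), with Fth1, ferritin heavy chain, at 571 ± 58.4 CPM in WT and 835 ± 31.7 CPM in HuMgat2 (log2 0.55, adjusted p = 0.00906). Of 23 stress response genes 1 rose and 1 fell with and without WT library 4, Sesn2 and Xbp1 (log2 0.61 and -0.84). Of 15 phosphatidylcholine genes 3 rose and 1 fell with and without it, and of 18 immediate early genes 1 rose and 1 fell (3 and 1 without library 4).

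Several of the largest changes fell outside the lists. Slc22a27, an organic anion transporter gene on chromosome 19, had 1.03, 0.501, 1.3 and 0.953 CPM in WT and 22, 19.7, 18.1 and 19.6 CPM in HuMgat2. It rose 20.9-fold (log2 4.39 ± 0.22 SE, adjusted p = 4.98e-09), and its adjusted p in the interaction test was the smallest of the called genes (log2 4.90 ± 0.32 SE, adjusted p = 4.79e-07). Gprc5b, an orphan receptor, had 0.635, 0.668, 0.77 and 0.953 CPM in WT and 17.9, 19.7, 18.8 and 19.3 CPM in HuMgat2 (log2 4.66 ± 0.66 SE, adjusted p = 0.000242), and Corin, a serine protease, rose 15.5-fold (adjusted p = 1.11e-05). A4gnt, a glycosyltransferase, rose by log2 5.18 from 0.442 ± 0.51 to 18.1 ± 11 CPM (log2 6.3 without WT library 3), with library 9 the lowest of HuMgat2 at 3.42 CPM. Among the decreases, Cdh1 (E-cadherin) had 30.3, 49.9, 41 and 20 CPM in WT and 3.66, 3.72, 3.36 and 4.66 CPM in HuMgat2 and fell 9.21-fold (log2 -3.20 ± 0.24 SE, adjusted p = 4.06e-07). Adam11 fell 10.7-fold (adjusted p = 1.34e-07) and Gpcpd1, a glycerophosphocholine phosphodiesterase, had 230.1, 227, 294 and 227 CPM in WT and 30.5, 44.1, 38.2 and 62.5 CPM in HuMgat2 (fold 5.58, adjusted p = 2.86e-06). Adgrf1 fell by log2 5.80 and Tff3, a trefoil peptide with 219 counts summed in WT and 3 in HuMgat2, had a ratio of 83.09 (95% counting interval 28.06 to 406). The immunoglobulin segment Igkv8-16 had 1594 counts in WT and 1 in HuMgat2.

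The diets were compared through the same genotype difference measured in other animals on chow. In the interaction test 844 genes were called, 452 with a higher and 392 with a lower value on HFD (2.61% and 2.26%). The number was 1129 without WT library 4 (6.4%, with 3.4% higher and 3% lower), 551 without HuMgat2 HFD library 10, 529 without WT chow library 5 and 550 without HuMgat2 chow library 15. Of the 844, 714 were among the genes called on HFD. Of these, 656 were called in both tests without library 4 too. For Cyp2c38 the difference on HFD was above that on chow (log2 2.63 ± 0.26 SE, adjusted p = 6.2e-05). Pim1, a STAT5 target kinase, went in opposite directions: it fell on HFD (log2 -0.91) and rose on chow (log2 1.13, adjusted p = 0.000207). Pcp4l1 did the reverse, higher on HFD (log2 2.15) and lower on chow (log2 -1.15, adjusted p = 0.0335). The chow medians in the plot of gene lists lie near 0 for the lipid lists.

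**Figure D5:**
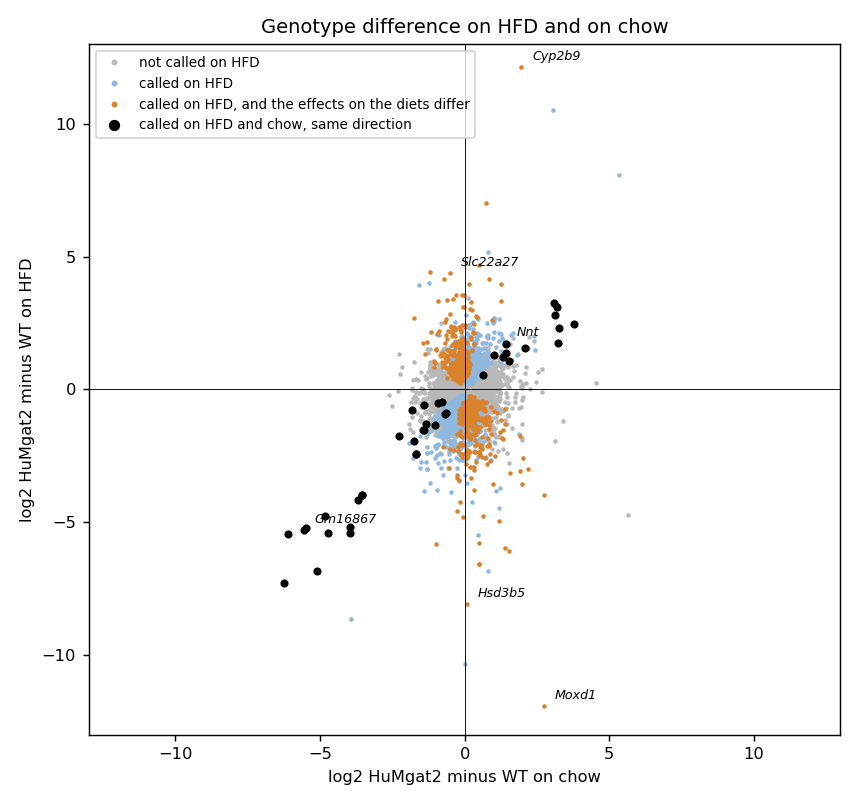
Each point is a tested gene, placed by its log2 change between HuMgat2 and WT on chow (x axis) and on HFD (y axis), with black points for the 39 genes called on both diets in the same direction. Most genes called on HFD lie along the vertical line at 0 on chow, while the black points lie near the diagonal.

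On both diets 51 genes were called, 39 of them in the same direction, 13 higher and 26 lower. Of the 39, 9 lay between 69.5 and 69.9 Mb of chromosome 14 and 6 between 41.9 and 42.2 Mb of chromosome 4 (GRCm39), and all 15 were lower in HuMgat2. The chromosome 14 group holds Entpd4, Entpd4b and predicted genes. Its member Gm16867 had 7.28, 7.22, 9.4 and 10.7 CPM in WT and 0.163, 0.0885, 0.255 and 0.358 CPM in HuMgat2 on HFD, and 11.2, 10.2, 9.48 and 9.74 CPM in WT and 0.323, 0.152, 0.269 and 0.14 CPM in HuMgat2 on chow. It fell 38.9-fold on HFD and 47-fold on chow, with Gm27177 beside it at nearly equal counts. On chromosome 4, Gm13301 had 3.81, 6.55, 6.12 and 8.26 CPM in WT and 0.122, 0.177, 0.17 and 0.0896 CPM in HuMgat2 on HFD and fell on both diets (log2 -5.40 and -3.96). Such copies share sequence and cannot be counted as separate genes. Nnt, the mitochondrial transhydrogenase that makes NADPH, lies on chromosome 13. Its level was 47.3, 41.1, 43.2 and 29.3 CPM in WT and 131, 136, 124 and 141 CPM in HuMgat2 on HFD, and 43.4, 34.2, 41.3 and 34.3 CPM in WT and 92.1, 129, 83.8 and 106 CPM in HuMgat2 on chow. Nnt rose 3.3-fold on HFD and 2.68-fold on chow without overlap, and its log2 change on HFD was 1.60 (adjusted p = 8.11e-07) without library 4. The C57BL/6J strain is known to carry a deletion within Nnt that related strains lack. The strains of these mice are not stated in the labels, so the modified locus and a difference in strain background cannot be told apart. The mitochondrial transfer RNA gene mt-Tg had 220 counts summed in WT and 1 in HuMgat2 on HFD, a ratio of 250.4 (95% counting interval 44.48 to 9935), and was called lower on chow too.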

How the data were processed

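Liver RNA, from 15 mg of tissue with an integrity number above 7, was sequenced as stranded, rRNA-depleted libraries, per the labels' protocols. The authors deposited raw read-pair counts per gene name (53008 names), made with STAR 2.7 and featureCounts 2.0.1 on GRCm39 with Ensembl 103 annotation, per the submitters' processing notes and the file headers. The recorded command sets neither strand nor multi-mapping options, so overlapping genes and near-identical copies are uncertain. The 64 records are 4 per library, and each of the 16 libraries was used once.

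Counts were tested with edgeR 4.0.16 (R 4.3.3; quasi-likelihood, TMM, filterByExpr, Benjamini-Hochberg at 0.05, two-sided) in 1 fit of 4 groups, and again without WT HFD library 4. The SE is the log2 change over the square root of F. Genes with at most 3 counts in a group are given as count ratios with 95% intervals. Alternatives were DESeq2 1.42.0, its size factors, 2 filters, the HFD groups alone, fewer features, limma 3.58.1 voom with sample weights, and each library left out. Named genes were taken from the Mogat and Dgat genes, the 12 largest changes each way, up to 4 called members per list, 8 by interaction, and those resting on library 4, on both diets or near Mogat2. The 12 each way were taken only from genes called with and without library 4, without overlap, and with a mean of at least 1 CPM in the higher group. For these genes, lack of overlap and the call without library 4 follow from the choice. Not every gene so picked is named. The 46 lists and members were chosen with earlier results of these data known.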

Additional observations from a re-analysis of the deposited data

Results flagged for a closer look

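For the genes in this paragraph the genotype difference on HFD differed from that on chow in the interaction test at an adjusted p below 0.05, and each value is the log2 difference on HFD minus that on chow. Among sterol and lipoprotein genes, the difference on HFD was above that on chow for Cyp51 (2.44), Hmgcs1 (2.87), Idi1 (3.15), Mvd (2.31) and Sqle (3.66). Among sterol and lipoprotein genes, the difference on HFD was below that on chow for Abca1 (-0.67), Abcg5 (-2.49), Abcg8 (-2.01), Cyp27a1 (-0.79), Cyp2c70 (-2.88), Scarb1 (-0.91) and Slco1a1 (-4.09). Among sex-biased genes, urinary proteins and the growth hormone axis, the difference on HFD was above that on chow for Abcd2 (3.24), Cyp2b9 (10.16), Hao2 (6.29) and Stat5a (0.58). Among sex-biased genes, urinary proteins and the growth hormone axis, the difference on HFD was below that on chow for Bcl6 (-2.87), C6 (-2.42), Hsd3b5 (-8.18), Moxd1 (-14.67), Mup7 (-5.55) and Socs3 (-4.69). Among genes of fat storage, synthesis and oxidation, the difference on HFD was above that on chow for Acot3 (2.85), Cd36 (1.95), Cyp4a14 (5.63), Fgf21 (3.10), Gpam (1.26), Lipa (0.70), Me1 (2.12), Pdk4 (2.56), Plin3 (0.69) and Plin4 (3.21). Among genes of fat storage, synthesis and oxidation, the difference on HFD was above that on chow also for Vldlr (2.61). Among genes outside the lists, the difference on HFD was above that on chow for Corin (2.69), Gprc5b (4.15), Idi1-ps1 (3.16), Pcp4l1 (3.30) and Slc22a27 (4.90). Among genes outside the lists, the difference on HFD was below that on chow for Adam11 (-3.24), Adgrf1 (-6.29), Cdh1 (-2.95), Gpcpd1 (-2.97), Gvin-ps2 (-2.30), Gvin-ps3 (-2.72), Gvin-ps4 (-2.37), Gvin-ps5 (-2.85), Gvin1 (-2.75) and Gvin2 (-2.72). Among genes outside the lists, the difference on HFD was below that on chow also for Pim1 (-2.04) and Tff3 (-7.63). Among other listed genes, the difference on HFD was above that on chow for Cdkn1a (2.07), Lrat (1.13), Npas2 (3.85) and Sesn2 (0.97). Among other listed genes, the difference on HFD was below that on chow for Bhlhe41 (-2.98), Cps1 (-1.24), Igfbp2 (-1.72), Irs2 (-1.24), Pck1 (-1.24), Prodh (-1.43), Rgn (-0.94), Slc1a2 (-1.04) and Xbp1 (-1.12). Among complement, acute phase and antigen genes, the difference on HFD was below that on chow for Bst2 (-0.88), C8a (-1.88), C8b (-2.46), C9 (-1.91), Cd4 (-3.31), Il1r1 (-2.96) and Saa1 (-7.38). Among detoxification genes, the difference on HFD was above that on chow for Cyp2c38 (2.63), Cyp2c39 (2.00), Gclc (1.86) and Mgst3 (2.42). Among detoxification genes, the difference on HFD was below that on chow for Cyp1a2 (-2.54) and Cyp2c54 (-2.50). Without WT HFD library 4 the interaction test did not call Abcd2 (adjusted p = 0.0529) or Corin (adjusted p = 0.0516). The value without that library was -2.35 for Saa1, -2.72 for Socs3, -2.04 for Il1r1, 2.78 for Cdkn1a and -14.04 for Moxd1, and -2.05, -2.02, -1.68, -2.07, -1.74 and -2.12 for Gvin1, Gvin2, Gvin-ps2, Gvin-ps3, Gvin-ps4 and Gvin-ps5, all of them called.

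In the next genes 1 of the 4 libraries of a group lay apart from the other 3 by Dixon's criterion, which chance meets in about 1 in 20 groups. WT HFD library 4 was below the others for Alb at 8390 CPM, Hmgcs1 at 41.4 CPM, Lipe at 10.9 CPM and Plin2 at 136 CPM. WT HFD library 2 was above the others for Apoa1 at 5222 CPM. WT HFD library 4 was above the others for Cd3e at 5.08 CPM, Fabp5 at 43.9 CPM, H2-Q7 at 149.5 CPM, Il1r1 at 328 CPM, Lcn2 at 862 CPM, Marco at 76.2 CPM, Mt2 at 365 CPM, Nkg7 at 3.02 CPM, Pcp4l1 at 2.15 CPM, Pim1 at 37.4 CPM, Prtn3 at 42.7 CPM, Saa1 at 7574 CPM, Saa2 at 6934 CPM and Socs3 at 116 CPM. WT HFD library 3 was above the others for Cyp2b13 at 0.081 CPM and Gpcpd1 at 294 CPM. HuMgat2 HFD library 11 was above the others for Gdf15 at 13.3 CPM and Igkv8-16 at 0.0425 CPM. HuMgat2 HFD library 9 was above the others for Moxd1 at 0.0407 CPM and Rgn at 507 CPM. HuMgat2 HFD library 10 was above the others for mt-Tg at 0.0443 CPM. The values of 0.0407 to 0.081 CPM stand for 1 or 2 counts.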

How the results depend on the processing

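The cause of the shifts below was not tested. The number of genes called on HFD was 2558, and with limma voom and sample weights it was 4323. Without WT library 4 it was 2501, and 4607 with voom. On chow DESeq2 called 238 genes and voom 135, against 88, and in the interaction test voom called 1391 against 844. Leaving out 1 library at a time gave 1585 to 2711 calls on HFD, 53 to 204 on chow and 529 to 1129 in the interaction test. In the fit without WT library 4, leaving out a further library gave 1591 to 2751. No call with all libraries had the opposite direction as a call in any alternative. Fits of the HFD groups alone gave no value for chow or the interaction.

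Dgat1 stood near 0 and changed sign: it was −0.02 with voom, and −0.01 to 0.21 with 1 library left out. Without WT library 4 it was 0 with DESeq2 and with its size factors, 0.02 with no filter, and −0.1 to 0.1 with a further library left out. With voom, Lcn2 was 0.67 and Mt2 0.3. Without WT library 4, voom gave 1.02 for Lcn2, 0.76 for Mt2 and 0.26 for Saa2. With a further library left out Lcn2 was -0.46 to 1.31, Mt2 -1.46 to 1.18, Saa1 -1.29 to 0.17 and Saa2 -0.62 to 0.48. Of the genes named as called, the fit of the HFD groups alone did not call Cd3e, Cyp8b1, Gpd1, Hba-a1, Hba-a2, Lcn2, Lrp1, Marco, Mpeg1, Mt2, Nkg7, Pklr, Saa1, Saa2, Socs3 and Srebf1 (adjusted p = 0.0525 to 0.123). Besides Lcn2 and Mt2, voom did not call Bcl6, Cd3e, Marco, Mpeg1, Saa1 and Saa2 (adjusted p = 0.0599 to 0.863).

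No paired analysis was possible because the labels give each group its own replicate numbers. Each group holds 4 libraries, and intervals on count ratios cover counting error only.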
